A study of Mus musculus with 6 samples.

Results

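The 9 genes described here are known from the fetal liver or from liver tumours and were measured in the livers of high fat diet (HFD)-fed Mettl14 f/f mice: *Afp*, *Gpc3* and *Golm1*, which encode secreted or surface proteins used as tumour markers, *H19*, *Igf2* and *Dlk1*, which are imprinted growth genes, and *Tspan8*, *Tff3* and *Ly6d*, which encode surface or mucosal proteins. They were chosen by name, with earlier results of these data known, and are 9 of the 18453 genes with at least 1 read. RNA-seq was done on whole liver from 6 males that carried floxed *Mettl14* alleles, began HFD at 8 weeks of age and stayed on it for 10 weeks before a tail-vein injection of AAV8-TBG-Cre (3 mice, genotype label METTL14 KO) or AAV8-TBG-GFP (3 mice, genotype label WT). Livers were taken 8 weeks after injection. The TBG promoter drives expression in hepatocytes, so the other liver cells keep the floxed alleles, and the AAV8-TBG-GFP mice share the alleles, the diet and the virus serotype. METTL14 is the structural partner of METTL3 in the enzyme complex that writes N6-methyladenosine (m6A) on RNA.

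The fetal liver makes AFP in place of much of the albumin of adult blood, and it uses IGF2 as a growth factor and H19, a non-coding RNA from the neighbouring locus, at high levels. These genes are silenced in hepatocytes soon after birth, and some of them return in regenerating liver and in hepatocellular carcinoma, where AFP and GPC3 are diagnostic markers. *Golm1*, *Tff3* and *Tspan8* are also made by epithelia, including bile duct epithelium, so their transcripts in whole liver need not come from hepatocytes.

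Depth was even, at 20356459 to 21010524 counts per library, so that 1 count stood for about 0.0411 to 0.0523 CPM (counts scaled to library size, with TMM). *Mettl14* was measured at 6.3, 6.43 and 5.81 CPM in the AAV8-TBG-GFP livers and at 4.96, 5.38 and 4.86 CPM in the AAV8-TBG-Cre livers. The groups did not overlap, but the log2 fold change of -0.29 ± 0.15 (SE) did not pass the test (unadjusted p = 0.101, edgeR adjusted p = 0.337). These counts cover the whole gene, and reads per exon were not available, so loss of the floxed part alone could not be measured. The paper reported less METTL14 protein and less total RNA m6A in AAV8-TBG-Cre male livers, at an earlier time after injection. Hepatocyte markers were abundant in every library, with 7 of 7 tested and a summed level of 91500 to 112000 CPM in the controls and 79000 to 97900 CPM with AAV8-TBG-Cre. The library names take a long form for 3 libraries, AAV8-TBG-Cre replicates 2 and 3 and AAV8-TBG-GFP replicate 3, and a short form for the rest. Values within each form are given as log2 ratios of group means beside the results, a comparison added after the data were seen. In each ratio 1 side is a single library. It is AAV8-TBG-Cre replicate 1 in the short form and AAV8-TBG-GFP replicate 3 in the long form.

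In all, 5 of the 8 genes that could be tested were higher after AAV8-TBG-Cre at an unadjusted p under 0.05 and a change of at least 1.2-fold, the study's own limits: *Tspan8*, *Golm1*, *Gpc3*, *H19* and *Tff3*. None was lower. *Gpc3* reached the test only through its AAV8-TBG-Cre libraries, where it had to be higher, and without it 4 of 7 were called. Among all 13431 genes tested, 20.5% were called by the same limits, 12.0% higher and 8.41% lower. These shares are also the ones to set beside the counts of the gene lists below. The members were chosen with earlier results known, so setting their counts beside these shares is a description, with no test. After Benjamini-Hochberg adjustment only *Tspan8* stayed under 0.05 in edgeR's quasi-likelihood test, where 0.484% of all genes were called higher. *Golm1*, *Tff3* and *Tspan8* had every AAV8-TBG-Cre liver above every AAV8-TBG-GFP liver, as did *Gpc3*, whose separation the filter on low counts favours. Among all genes tested, 14.0% separated in this way (27.0% in either direction). The median log2 fold change of the 8 was 1.67, or 1.65 without *Gpc3*, and that of all genes was -0.01. In whole liver, a change in RNA per cell and a change in the number of cells of a type cannot be told apart. The edgeR p-values set the difference between the groups against the spread of mice within each group, and they cover these 6 mice only.

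**Figure D1:**
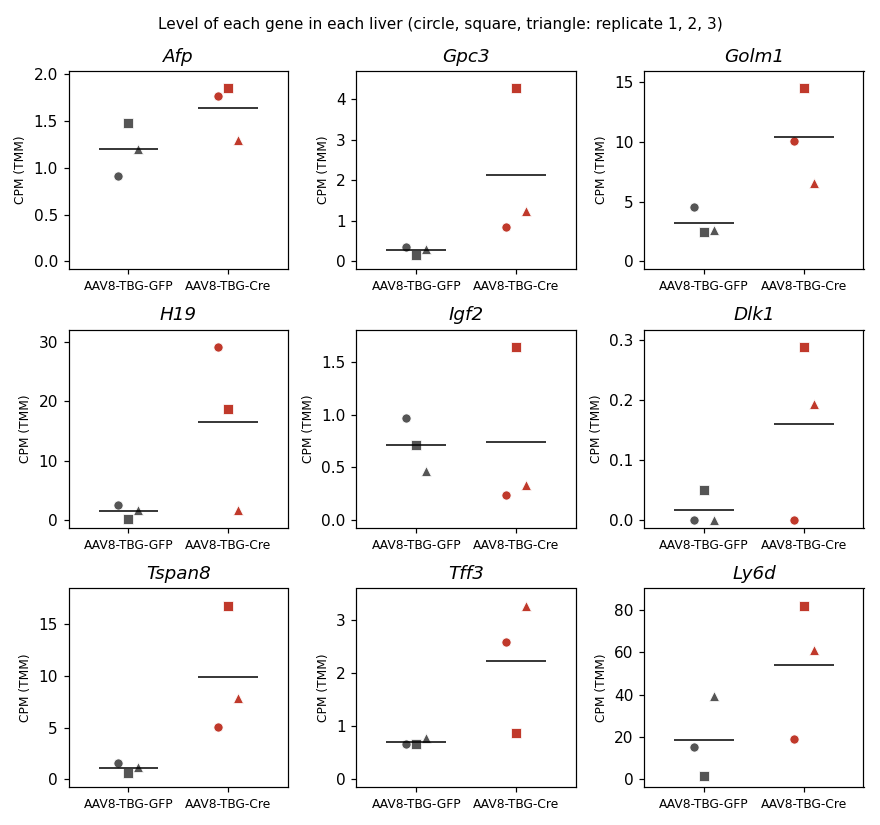
Level of the 9 genes in each liver, in TMM-scaled CPM on a linear axis that differs between panels; points are mice, with circle, square and triangle for replicates 1, 2 and 3, and lines are group means (n = 3). The groups separate for Gpc3, Golm1, Tspan8 and Tff3, while H19 in AAV8-TBG-Cre replicate 3 lies at 1.73 CPM, inside the AAV8-TBG-GFP range.

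The stretch of 250 bases just upstream of an annotated transcription start is shown for *Gpc3*, *Golm1* and *Tspan8*, whose levels separated by group, and for *Afp*, whose levels did not. The filter on low counts favours the separation of *Gpc3*, and 14.0% of all genes tested separated upward. The sequences are from RefSeq on GRCm38.p6 (the mm10 build), 5′ to 3′ on the gene's strand: *Gpc3* chrX:52613975-52614224 (minus strand), *Golm1* chr13:59675785-59676034 (minus strand), *Tspan8* chr10:115817034-115817283 (plus strand) and *Afp* chr5:90490464-90490713 (plus strand). Capitals mark matches, on either strand, to any of 6 short motifs: GTTAAT of HNF1, TATAAA of the TATA box, GGGCGG of SP1, TGTTTAC of forkhead factors, TGANTCA of AP-1 and GGAATG of TEAD.
Gpc3: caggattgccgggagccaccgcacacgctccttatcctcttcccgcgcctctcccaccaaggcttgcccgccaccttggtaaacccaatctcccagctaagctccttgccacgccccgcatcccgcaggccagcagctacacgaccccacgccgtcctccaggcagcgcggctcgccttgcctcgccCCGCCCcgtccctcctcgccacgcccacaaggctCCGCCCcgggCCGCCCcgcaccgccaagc
Golm1: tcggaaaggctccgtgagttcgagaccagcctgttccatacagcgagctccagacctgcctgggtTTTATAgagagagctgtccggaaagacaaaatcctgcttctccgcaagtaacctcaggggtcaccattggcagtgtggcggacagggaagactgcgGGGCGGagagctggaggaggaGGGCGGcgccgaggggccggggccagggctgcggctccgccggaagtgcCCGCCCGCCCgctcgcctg
Tspan8: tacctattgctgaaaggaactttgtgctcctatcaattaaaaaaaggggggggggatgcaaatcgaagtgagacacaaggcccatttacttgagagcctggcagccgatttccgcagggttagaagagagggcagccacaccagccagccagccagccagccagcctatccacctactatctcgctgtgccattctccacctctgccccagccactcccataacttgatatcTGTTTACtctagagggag
Afp: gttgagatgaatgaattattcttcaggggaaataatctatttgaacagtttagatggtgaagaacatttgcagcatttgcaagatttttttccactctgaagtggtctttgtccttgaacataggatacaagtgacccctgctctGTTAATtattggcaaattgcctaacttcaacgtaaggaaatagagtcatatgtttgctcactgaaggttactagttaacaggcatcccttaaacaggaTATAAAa
The *Gpc3* stretch was 71.6% G and C and held 3 SP1 matches, and the *Golm1* stretch was 65.6% G and C with 4 SP1 matches, of which the last pair overlap. Among 32851 promoter stretches of this length, 32.7% held the SP1 letters. *Golm1* and *Afp* each held 1 match to the TATA letters, which 12.4% of all stretches had, and that of *Afp* lies directly before the start. *Afp*, at 36.0% G and C, also had the HNF1 letters, which 6.43% of stretches had. The *Tspan8* stretch held 1 forkhead match, and 3.17% of all stretches did. AP-1 letters (6.75% of stretches) and TEAD letters (12.6%) were in none of these 4. The *Tspan8* stretch lies inside the annotated gene, before the start of 1 of its transcripts. No searched motif was in all of *Gpc3*, *Golm1* and *Tspan8*. Of the other members, *Dlk1* and *Igf2* had stretches in the table, and *H19*, *Ly6d* and *Tff3* had none.

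*Tspan8* (NCBI Gene 216350, chromosome 10, positions 115816817 to 115849893) encodes a tetraspanin, a membrane protein of gut and biliary epithelium that is raised in several carcinomas. Its level was 1.58, 0.612 and 1.15 CPM in the controls and 5.01, 16.8 and 7.89 CPM with AAV8-TBG-Cre. The lowest AAV8-TBG-Cre liver was thus well above the highest control, and AAV8-TBG-Cre replicate 2 stood above the other two. The group means were 1.11 ± 0.483 and 9.89 ± 6.12 CPM (SD, n = 3), a log2 fold change of 3.15 ± 0.53 (SE, unadjusted p = 0.000395, edgeR adjusted p = 0.046, smallest exact permutation p of 0.1). The log2 ratio was 2.2 within the short-named libraries and 3.42 within the long-named ones. Leaving out AAV8-TBG-Cre replicate 2 brought the fitted change to 2.52 (log2). The adjusted call was lost on leaving out any mouse other than AAV8-TBG-Cre replicate 1, and adjusted p-values ran from 1.27e-07 to 0.173 over the 16 alternatives. All counts were assigned to a lone transcript in each AAV8-TBG-GFP library, though not the same transcript in all 3. AAV8-TBG-Cre replicates 2 and 3 had counts on all 3 transcripts, with 38.9%, 43.5% and 17.6% of the gene's counts in replicate 2. A control library held 12 to 31 *Tspan8* counts, too few to compare transcript use.

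*Golm1* (NCBI Gene 105348, chromosome 13, positions 59634996 to 59675784) encodes GP73, a Golgi membrane protein that is shed into serum in liver disease. Levels were 4.52, 2.45 and 2.67 CPM in the controls and 10.1, 14.5 and 6.59 CPM after AAV8-TBG-Cre. All 3 AAV8-TBG-Cre livers were higher than each control. The means were 3.21 ± 1.14 and 10.4 ± 3.94 CPM (SD, n = 3), and the log2 fold change was 1.69 ± 0.35 (SE, unadjusted p = 0.00143, edgeR adjusted p = 0.0619, exact permutation p = 0.1). Within short- and long-named libraries the log2 ratios were 1.53 and 1.98. Leaving out any mouse gave 1.37 to 2.02. Its paralog *Golm2*, also called *Casc4*, fell by 0.52 on the log2 scale (edgeR adjusted p = 0.228).

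*Gpc3* (NCBI Gene 14734, chromosome X, positions 52272426 to 52613974) encodes glypican 3, a heparan sulfate proteoglycan anchored to the cell surface that restrains growth in the embryo and is a marker antigen of hepatocellular carcinoma. It was near the detection limit in the controls, with 7, 3 and 6 counts or 0.356, 0.153 and 0.314 CPM. The AAV8-TBG-Cre livers had 18, 104 and 26 counts, or 0.859, 4.27 and 1.25 CPM. The gene passed the filter on low counts only through these libraries, so its test is given as a description and not as support for a rise. The AAV8-TBG-Cre mean of 2.13 ± 1.87 CPM against 0.274 ± 0.107 CPM (SD, n = 3) gave a log2 fold change of 2.94 ± 0.73 (SE, unadjusted p = 0.0041, edgeR adjusted p = 0.0854, exact permutation p = 0.1). AAV8-TBG-Cre replicate 2 carried much of the mean: without it the log2 fold change was 1.92 (unadjusted p = 0.00467). The ratio was 1.76 within short-named and 3.14 within long-named libraries on the log2 scale. *Mir6384*, *Mir717* and *A630012P03Rik* overlap the gene in the annotation, and the counting is not stated to use strand. Of its family, 7 of 9 glypicans and syndecans were tested, with 1 higher (*Gpc6*, 0.60) and 1 lower (*Gpc1*, -1.39) and a median log2 fold change of -0.11, the most abundant being *Sdc4* at -0.35, which did not pass.

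*Afp* (NCBI Gene 11576, chromosome 5, positions 90490714 to 90508907) encodes alpha-fetoprotein, the fetal counterpart of albumin. Its levels were 0.915, 1.48 and 1.2 CPM in the AAV8-TBG-GFP livers and 1.77, 1.85 and 1.3 CPM in the AAV8-TBG-Cre livers. AAV8-TBG-Cre replicate 3 lay inside the control range, and every library held 18 to 45 counts. The means were 1.2 ± 0.282 and 1.64 ± 0.296 CPM (SD, n = 3). The log2 fold change of 0.45 ± 0.3 (SE) did not pass (unadjusted p = 0.177, edgeR adjusted p = 0.446, exact permutation p = 0.2), and the log2 ratios within name forms were 0.56 and 0.39. Per length, *Afp* had a level of 0.42 to 0.67 FPKM in the controls and 0.61 to 1.04 FPKM after AAV8-TBG-Cre, and *Alb* had 28514 to 35426 FPKM over all 6 livers, so the transcript remained a trace beside albumin in every liver. Of the 3 tested genes of the albumin family beside it, none was higher and *Afm*, the vitamin E carrier afamin, was lower at -0.73 (edgeR adjusted p = 0.0881). *Alb* itself, the most abundant, was at -0.19 and did not pass.

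The 11 listed transcription factors that act on the *Afp*, *H19* and *Gpc3* genes were all tested. There were 2 called higher, among them *Foxa3* (0.68), and 1 lower, *Cebpb* (-0.65), on the log2 scale, and the list median was 0.07. None passed after adjustment. ZHX2 and ZBTB20 are the known postnatal repressors of *Afp*, and their log2 fold changes of -0.14 for *Zhx2* and -0.01 for *Zbtb20* did not pass. Both were named as repressors rather than by the rule for named genes. *Hnf4a*, the most abundant of the list, was at 0.07.

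*H19* (NCBI Gene 14955, chromosome 7, positions 142575530 to 142578146) is a maternally expressed non-coding RNA that also hosts *Mir675*. Levels were 2.64, 0.204 and 1.73 CPM in the controls and 29.1, 18.7 and 1.73 CPM with AAV8-TBG-Cre. The AAV8-TBG-Cre livers were split, with replicates 1 and 2 far above every control and replicate 3 inside the control range. The means were 1.52 ± 1.23 and 16.5 ± 13.8 CPM (SD, n = 3), with a log2 fold change of 3.43 ± 1.02 (SE, unadjusted p = 0.0105, edgeR adjusted p = 0.124, exact permutation p = 0.2). The highest library was 13.0 times the lowest within the controls and 16.8 times the lowest within the AAV8-TBG-Cre group. Log2 ratios were 4.35 within short-named and 2.56 within long-named libraries. Leaving out AAV8-TBG-Cre replicate 1 gave 2.76, and leaving out AAV8-TBG-GFP replicate 1 gave 4.09.

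*Igf2* (NCBI Gene 16002, chromosome 7, positions 142650768 to 142666816), the paternally expressed growth factor next to *H19*, was low in every liver. It was measured at 0.966, 0.714 and 0.471 CPM in controls and at 0.239, 1.64 and 0.337 CPM after AAV8-TBG-Cre. AAV8-TBG-Cre replicate 2 was the highest of all 6 livers and the other two were the lowest. The means of 0.717 ± 0.247 and 0.739 ± 0.784 CPM (SD, n = 3) gave a log2 fold change of 0.07 ± 0.72 (SE, unadjusted p = 0.92, edgeR adjusted p = 0.967). The direction was set by the libraries used: the log2 ratio was -1.82 within short-named and 1.07 within long-named libraries, and the log2 fold change was -1.31 without AAV8-TBG-Cre replicate 2. *Mir483* and the antisense *Igf2os* overlap the gene, and reads of the antisense partner cannot be told apart without strand.

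*Dlk1* (NCBI Gene 13386, chromosome 12, positions 109452485 to 109463336), which encodes a Delta-like membrane protein of hepatoblasts, was at the limit of detection. It had 0, 1 and 0 counts in the controls and 0, 7 and 4 counts in the AAV8-TBG-Cre livers. A count of 0 allows up to 3 counts, or 0.123 to 0.157 CPM depending on the library, and the gene did not pass the filter on low counts. A difference between the groups was not detectable at this depth (exact permutation p = 0.4).

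The non-coding RNAs of the *Dlk1* domain were easier to measure, and they were set beside *H19* after their values had been seen. *Meg3*, the maternally expressed RNA of that domain, was at 1.32, 1.53 and 1.26 CPM in the controls and at 15.0, 5.09 and 3.56 CPM after AAV8-TBG-Cre, which gave a log2 fold change of 2.52 ± 0.55 (SE, edgeR adjusted p = 0.0701). *Rian*, from the same domain, was at 0.915, 0.51 and 0.576 CPM and at 8.92, 2.18 and 1.59 CPM, a log2 fold change of 2.65 ± 0.72 (SE, edgeR adjusted p = 0.101). AAV8-TBG-Cre replicate 1 was the highest liver for both, as it was for *H19*, and neither overlapped between groups. The log2 difference of *H19* over *Igf2*, on log2(CPM + 0.5), was 1.1, -0.79 and 1.2 in the controls and 5.32, 3.16 and 1.42 after AAV8-TBG-Cre, a shift of 2.8 that is a description, with no test, since the pair was chosen with its values known.

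**Figure D2:**
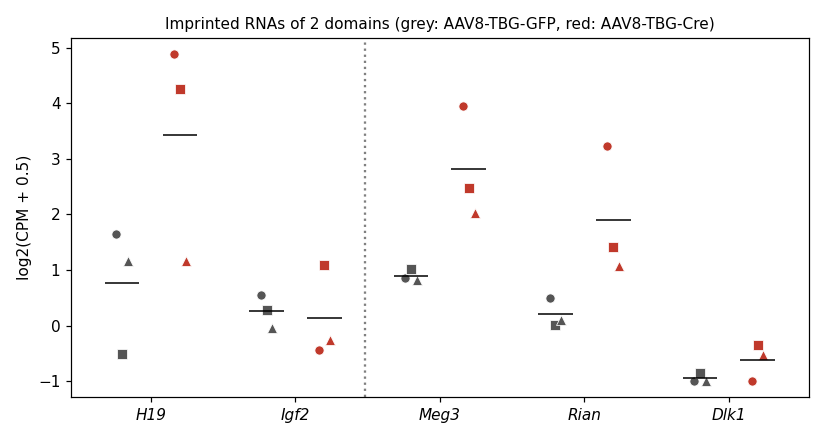
Imprinted RNAs of the H19 and Dlk1 domains in each liver as log2(CPM + 0.5); points are mice with circle, square and triangle for replicates 1, 2 and 3, grey for AAV8-TBG-GFP and red for AAV8-TBG-Cre, and lines are means (n = 3). The non-coding H19, Meg3 and Rian reach 29.1, 15.0 and 8.92 CPM in AAV8-TBG-Cre replicate 1, whereas Igf2 is at 0.239 CPM there. In AAV8-TBG-Cre replicate 2 Igf2 has its highest level, 1.64 CPM, with H19 at 18.7 CPM. In AAV8-TBG-Cre replicate 3 H19 is at 1.73 CPM, inside the AAV8-TBG-GFP range.

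Of 22 other imprinted genes, 16 were tested and *Zim1* was at 0 in every library. There were 4 called higher and 0 lower, namely *Sgce*, an epsilon-sarcoglycan (1.21, edgeR adjusted p = 0.052), *Meg3*, *Rian* and *Grb10*, an adaptor that dampens insulin and IGF1 receptor signalling (1.07, edgeR adjusted p = 0.12). The list median was a log2 fold change of 0.49. The most abundant, the amino acid transporter *Slc38a4*, was at 0.09 and did not pass. In the IGF axis of ligands, receptors and binding proteins, 14 of 15 genes were tested, with 2 higher, 0 lower and a median of 0.12. They were *Igfbp7* (0.81) and *Igfbp6*, which encodes a binding protein that prefers IGF2 and which passed the filter only through the AAV8-TBG-Cre libraries. Without it, 1 of 13 was higher. *Igfbp6* was at 0.102, 0.051 and 0.157 CPM in the controls and at 0.62, 1.19 and 1.01 CPM after AAV8-TBG-Cre, the control values being 1 to 3 counts each. *Igfbp4*, the most abundant of the list, was at -0.10 and did not pass.

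*Tff3* (NCBI Gene 21786, chromosome 17, positions 31125306 to 31129611) encodes trefoil factor 3, a small peptide that mucous epithelia secrete. Its level was tight in the controls, at 0.661, 0.663 and 0.785 CPM, and spread after AAV8-TBG-Cre, at 2.58, 0.863 and 3.27 CPM. The groups did not overlap, although AAV8-TBG-Cre replicate 2, the highest liver for most of the other genes, was only just above the controls. Means of 0.703 ± 0.0712 and 2.24 ± 1.24 CPM (SD, n = 3) gave a log2 fold change of 1.65 ± 0.5 (SE, unadjusted p = 0.0115, edgeR adjusted p = 0.129, exact permutation p = 0.1). Within name forms the log2 ratios were 1.96 and 1.4.

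*Ly6d* (NCBI Gene 17068, chromosome 15, positions 74762056 to 74763567) encodes a small GPI-anchored surface protein of the LY6 family. It had the widest ratio of highest to lowest control among the 8 genes tested, at 15.2, 1.38 and 39.3 CPM, and was at 18.8, 81.9 and 61.0 CPM after AAV8-TBG-Cre. The highest control was 28.5 times the lowest, and AAV8-TBG-Cre replicate 1 lay inside the control range. The means were 18.6 ± 19.2 and 53.9 ± 32.1 CPM (SD, n = 3), and the log2 fold change of 1.53 ± 0.92 (SE) did not pass (unadjusted p = 0.137, edgeR adjusted p = 0.392, exact permutation p = 0.2). It was 2.70 with an unadjusted p of 0.0277 when AAV8-TBG-GFP replicate 3, the highest control, was left out. Log2 ratios were 1.18 within short-named and 0.86 within long-named libraries.

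The families of the surface proteins were mixed. Of 26 other tetraspanins, 22 were tested, with 7 higher, 3 lower and a median log2 fold change of 0.11. Over all genes tested, 12.0% were called higher and 8.41% lower. Those with the smallest p were *Tspan9* (0.50), *Cd53* of leukocytes (0.87), *Cd82* (-0.44) and *Cd63* of late endosomes (1.82). *Tspan31*, the most abundant, was at 0.18 and did not pass. Of 14 LY6 genes, 6 were tested, and *Ly6a* (0.78) and *Ly6e* (0.87), the latter the most abundant, were higher, whereas the neutrophil marker *Ly6g* (-0.52) was lower, around a median of 0.40. *Dlk2*, *Tff1* and *Tff2*, paralogs of *Dlk1* and *Tff3*, had too few counts to be tested.

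**Figure D3:**
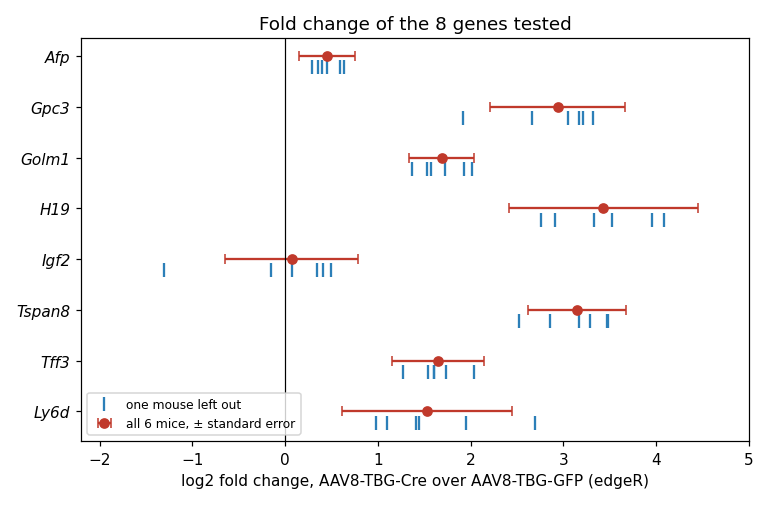
Log2 fold change of AAV8-TBG-Cre over AAV8-TBG-GFP in edgeR for the 8 genes tested, as a point with its standard error, and, as blue ticks, the value with each mouse left out in turn. Igf2 spans 0, with a lowest tick of -1.31, and Tspan8, Gpc3 and H19 lie furthest to the right at 3.15, 2.94 and 3.43.

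Compared per length on the FPKM scale, *Ly6d* had the highest group mean in the controls, at 25.8, followed by *Tff3* (1.54), *Golm1* (0.85), *Tspan8* (0.763), *H19* (0.627), *Afp* (0.54), *Igf2* (0.243), *Gpc3* (0.113) and *Dlk1* (0.00333). Neighbours from *Golm1* down to *Afp* overlapped between livers, and so did *Igf2* and *Gpc3*. With AAV8-TBG-Cre the mean FPKM levels ran *Ly6d* (87.4), *H19* (7.75), *Tspan8* (7.72), *Tff3* (5.34), *Golm1* (3.14), *Gpc3* (1.04), *Afp* (0.837), *Igf2* (0.317) and *Dlk1* (0.04). There the spread between livers was wider, and only *Ly6d* over *H19* and *Igf2* over *Dlk1* were pairs of neighbours without overlap. *Afp*, the best known fetal liver marker, was thus in the lower part of this order in both groups.

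Other genes known from the fetal liver or from liver tumours were also counted. Of 28 listed, 20 were tested and 10 were higher and 0 lower, with a median log2 fold change of 0.93. Over all genes tested, 12.0% were called higher and 8.41% lower, with a median of -0.01. The list was chosen with earlier results known, so this is a description, with no test. The leading ones were *Cd24a*, a mucin-like surface protein of progenitor and biliary cells (2.60 ± 0.44 SE, edgeR adjusted p = 0.0471), the progenitor transcription factor *Sox4* (2.42, edgeR adjusted p = 0.0526), *Prom1*, which encodes CD133 (2.35, edgeR adjusted p = 0.0586), and the heparin-binding growth factor *Mdk* (2.34, edgeR adjusted p = 0.0711). *Krt8*, the most abundant, was at -0.10 and did not pass. The embryonic globins *Hba-x* and *Hbb-y* and the fetal regulators *Lin28b* and *Trim71* were at 0 in all 6 libraries.

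Markers of cell types were also counted, and some lists were higher after AAV8-TBG-Cre while others were not. Over all genes tested, 12.0% were called higher and 8.41% lower. All 9 of the 9 tested cholangiocyte markers, of 10 listed, were higher, with a median log2 fold change of 2.39, and their summed level was 72.8 to 129 CPM in the controls and 308 to 579 CPM after AAV8-TBG-Cre. The leading ones were *Cldn4* (1, 2 and 1 counts in the controls and 31, 194 and 51 counts after AAV8-TBG-Cre), *Spp1* (2.28, the most abundant), *Sox9* (1.63) and *Epcam* (2.68). *Cldn4* and *Cftr* passed the filter only through the AAV8-TBG-Cre libraries, and without them 7 of 7 were higher, with a median of 2.30. No cholangiocyte marker was at 0 throughout. AAV8-TBG-Cre replicate 2 had the highest sum and AAV8-TBG-GFP replicate 2 the lowest, the same livers that were highest and lowest for *Tspan8*, *Gpc3*, *Golm1* and *Ly6d*. This order was not particular to cholangiocytes. The mesothelial sum had the same highest and lowest livers (log2 ratios to the control mean of 2.04 and -0.94). The stellate, macrophage, B cell, neutrophil and erythroid sums were also highest in AAV8-TBG-Cre replicate 2. *H19* and *Tff3* had their highest levels in AAV8-TBG-Cre replicates 1 and 3, though *H19* too was lowest in AAV8-TBG-GFP replicate 2. The part of cholangiocyte RNA in these results was not tested.

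Of 9 stellate cell and fibroblast markers, 4 were higher, led by *Col3a1* (2.09), *Col1a1* (2.15), *Lum* (1.74) and *Pdgfrb* (1.04), with a median of 0.38 and sums of 227 to 346 against 423 to 893 CPM. The most abundant, *Dcn*, did not pass (0.38). Nor did the rest of the list, named here outside the rule for named genes: *Acta2* (-0.37), *Lrat* (-0.25), *Reln* (-0.10) and *Des* (0.13). Macrophage markers were higher for 5 of 6, among them *Trem2* (1.89), *Cd68* (1.2), *Csf1r* (0.68) and *Adgre1* (0.60), with a median of 0.64 and sums of 110 to 142 against 167 to 238 CPM. Of the 4 mesothelial markers tested, *Gpm6a* (1.49) was higher, as was *Msln* (1.90), which passed the filter only through the AAV8-TBG-Cre libraries, around a median of 1.36, and the sums were only 1.33 to 3.98 and 3.96 to 10.5 CPM. Proliferation markers were higher for 5 of 8, with *Ccna2* (1.27), *Top2a* (1.49), *Birc5* (0.78) and *Cdk1* (1.38) leading a median of 1.22, while the most abundant, *Pcna*, was at 0.03. Endothelial markers had 0 of 6 higher and *Stab2* lower (-0.32). The part of these cells in the results was not tested.

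Epithelial markers of other organs were also measured. Of the pancreatic acinar markers, *Cela3b*, *Cpa1*, *Pnlip* and *Prss2* were at 0 in all libraries, and the sum was at most 0.818 CPM. Of the intestinal markers, *Agr2* and *Cdx2* were at 0, and the summed level was 21.9 to 36.6 CPM in the controls and 18.6 to 25.8 CPM after AAV8-TBG-Cre, mostly *Lgals4*, which did not pass (-0.36). *Vil1* was called higher but reached the test only through the AAV8-TBG-Cre libraries, with 7, 1 and 1 counts in the controls and 14, 34 and 21 counts after AAV8-TBG-Cre. The hepatocyte list had *Cps1* higher (0.74) and *Ttr* lower (-0.57) around a median of -0.19. Erythroid markers, a sign of blood or of fetal-type haematopoiesis, had 0 of 4 called and a median of -0.06.

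**Figure D4:**
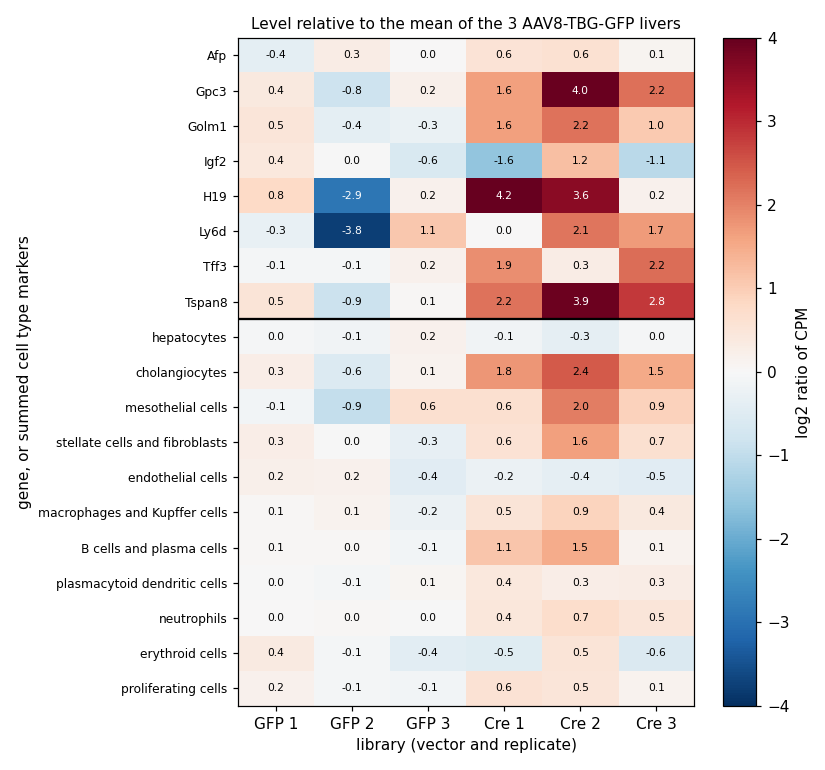
Log2 ratio of each liver's CPM to the mean of the 3 AAV8-TBG-GFP livers for the 8 tested genes (upper rows) and for the summed markers of 11 cell types and states (lower rows); red is higher and blue lower. The cholangiocyte sum is 1.76, 2.44 and 1.53 in the 3 AAV8-TBG-Cre livers, and Tspan8 is 2.17, 3.91 and 2.83, whereas Afp stays at or below 0.62.

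The genes whose levels followed each member most closely were ranked by Pearson's r of log2(CPM + 0.5) over the 6 livers, among 12366 genes with a mean of at least 1 CPM. With 6 points that share depth and group, many genes reach a high r: 844 genes had an r of at least 0.9 with *Gpc3*, 796 with *Tspan8* and 543 with *Golm1*, but 181 with *Ly6d*, 94 with *H19*, 71 with *Afp*, 71 with *Tff3* and 46 with *Igf2*. The nearest to *Tspan8* were *Timp1* (0.997), an inhibitor of matrix metalloproteases, and *Dtx3* (0.997). *Gpc3* was nearest to *Adam15* (0.998) and *Csf2ra* (0.997), and *Golm1* to *Nfkb1* (0.996) and *Rragd* (0.996). *H19* was nearest to the mitotic kinesin *Kif11* (0.997) and *Ldlrad3* (0.979), and *Afp* to the spindle factor *Tpx2* (0.993) and the chromatin remodeller *Atrx* (0.993). *Igf2* was nearest to *Purg* (0.991) and the adult beta-globin *Hbb-bs* (0.985), the latter at 104 CPM in AAV8-TBG-Cre replicate 1 and 279 CPM in replicate 2. *Ly6d* was nearest to *Gimap9* (0.990) and *Pvt1* (0.989), and *Tff3* to *Ctnna1* (0.984) and *Gnpnat1* (0.978).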

How the data were processed

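Per the labels, RNA from 6 livers was sequenced on a DNBseq platform. The submitters' processing notes name HISAT2, Bowtie2, RSEM and mm10, while the published methods name STAR, HTSeq and DESeq2, and no versions are given. The authors deposited, per transcript and library, RSEM expected counts, and FPKM per gene. Here the expected counts were summed per NCBI gene and rounded, normalised by TMM, filtered with filterByExpr and tested over all genes in edgeR 4.0.16 (quasi-likelihood, Benjamini-Hochberg), with R 4.3.3. DESeq2 1.42.0 and limma 3.58.1 on log2(FPKM + 1) were alternatives, as were other filters, scalings and leaving out each mouse. Single genes also had an exact two-sided permutation test on log2(CPM + 0.5). The scripts were tested on simulated data. Replicates differed beyond sampling noise. The members and lists were chosen with earlier results of these data known. From each list the text names at most 4 called genes by smallest p and the most abundant gene, and for each tested member the 2 genes with the highest r. Limits of detection cover counting error only. The SE of each log2 fold change takes in the spread between mice within a group as well. Values of 1 listed gene are not reported here.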

Additional observations from a re-analysis of the deposited data

How the results depend on the processing

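The calls of *Tspan8*, *Golm1*, *H19* and *Tff3* at an unadjusted p under 0.05 kept their direction in every alternative that tested them. There were 16 alternatives for *Tspan8*, *Golm1* and *Tff3* and 15 for *H19*. *Gpc3* stayed higher in the 13 that tested it. It passed the main filter only through its AAV8-TBG-Cre libraries, so this is a description and not support for a rise. Requiring at least 10 counts in every library left 5 members to test, of which 3 were called. Leaving out *Gpc3*, which no control library brings past the filter, left 4 called (an alternative added after the data were seen). Of the members, 1 passed at an adjusted p under 0.05, and this count was 4 with DESeq2, 2 with no filter on low counts, and 0 with RLE or upper quartile normalisation, with at least 10 counts in every library, with the replicate block, and with limma on log2(FPKM + 1), on log2(FPKM + 0.1) or on log2(FPKM + 1) without a filter. Leaving out 1 mouse gave 0 to 2 adjusted calls, with 2 without AAV8-TBG-Cre replicate 1 and 0 for each of the other 5 mice. Over all genes, the adjusted calls were 65 higher and 60 lower, against 748 and 409 with DESeq2 and 1 and 6 with the replicate block. They were 551 and 344 without AAV8-TBG-Cre replicate 1, 0 and 0 without replicate 2, and 3 and 10 without replicate 3. Without AAV8-TBG-GFP replicates 1, 2 and 3 in turn they were 3 and 5, 0 and 0, and 0 and 1. The 1618 higher and 1129 lower unadjusted calls became 1922 and 737 with upper quartile normalisation and 1880 and 365 on log2(FPKM + 1), where the median of all genes was 0.112.

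*Igf2* reversed to a log2 fold change of -0.23 with the replicate block, -0.19 with library name form as a covariate, -0.15 without AAV8-TBG-GFP replicate 3, -1.31 without AAV8-TBG-Cre replicate 2 (unadjusted p = 0.0357, the range with 1 mouse left out being -1.31 to 0.49) and -1.82 within the short-named libraries. *Ly6d* passed only without AAV8-TBG-GFP replicate 3. The cause was not tested. Replicate numbers were not used as pairs in the main fit. Same-numbered deviations from the group means correlated at -0.006, -0.25 and 0.194, and not every mouse correlated best with its own number. Such correlations of 3 mice per group cannot decide whether the numbers pair the mice. The block left 1504 higher and 1093 lower unadjusted calls over all genes. *Dlk1* and the control levels of *Gpc3* are limited by depth.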

Other observations

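Markers of blood cells were also measured. Of 3 B and plasma cell markers tested, *Jchain* (1.00, edgeR adjusted p = 0.14) and *Cd79a* (1.18, edgeR adjusted p = 0.157) were called higher at the unadjusted limit, with sums of 6.65 to 7.37 and 7.75 to 19.9 CPM. Of 4 plasmacytoid dendritic cell markers, *Bst2* (0.37) and *Runx2* (1.25) were higher, as was *Siglech*, which passed the filter on low counts only through the AAV8-TBG-Cre libraries, with sums of 97.1 to 109 and 124 to 138 CPM, mostly *Bst2*. Neutrophil markers had *S100a9* (1.48) and *Csf3r* (0.97) higher and *Ly6g* (-0.52) lower. *S100a8* was called higher too but reached the test only through the AAV8-TBG-Cre libraries, with 5, 6 and 5 counts in the controls and 24, 28 and 27 counts after AAV8-TBG-Cre. Of 6 T and NK cell markers, 1 was tested, *Nkg7*, and it was not called (0.82).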
